A study of Mus musculus with 13 samples.

Results

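A set of 10 genes of the human chromosome 5q region was followed in mouse bone marrow progenitors that lacked Tifab, miR-146a or both. They are the mouse orthologs of RPS14, CSNK1A1, APC, CTNNA1, HSPA9, BRD8, DDX41, NPM1, DIAPH1 and SPARC, chosen by name from genes described as dosage-sensitive in del(5q) myeloid disease. All 10 were found among the 24062 rows of the deposited expression table, with Diaph1 carried under its older spelling Diap1. The question was whether loss of Tifab or of miR-146a, which are themselves 5q genes in human, was accompanied by changes in other genes of that region. RNA sequencing covered 13 libraries of LK cells, a marrow fraction without lineage markers or Sca-1 but with c-kit, in which committed progenitors of the myeloid, red cell and platelet lines are enriched.

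The cells came from bone marrow chimeras, in which Boy/J recipients received 7.0 Gy and, 3 h later, 4.75 Gy of radiation before donor marrow was infused. Donor marrow was TIFAB-/-;miR-146a-/- (dKO, 4 libraries), TIFAB-/-;miR-146a+/+ (TIFAB_KO, 3 libraries), TIFAB+/+;miR-146a-/- (miR-146a_KO, 3 libraries) or TIFAB+/+;miR-146a+/+ (WT, 3 libraries), and the mice were 2 to 5 months old. All 4 groups therefore share irradiation and transplantation, the labels name no donor marker in the sort, and host cells that survived could be among the LK cells. The protocol gives 3 mice per group, and whether every library stands for its own mouse is not stated, so p-values measure the spread between libraries, which may in part be technical.

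A deletion of the long arm of human chromosome 5 removes a single copy of many genes at once, and a gene is called haploinsufficient where the remaining copy does not keep up its function. In blood-forming cells several such genes are each known to disturb a different process when their dose falls, among them ribosome assembly, beta-catenin breakdown, mitochondrial protein folding and RNA splicing. TIFAB restrains signalling through TRAF6, and miR-146a represses TRAF6 and IRAK1 by pairing with their messages.

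The RNA that miR-146a_KO and dKO cells lack is shown because its seed decides which messages it can pair with. The sequence is that of RefSeq on GRCm38.p6, from chr11:43374435-43374456 on the minus strand, and capitals mark the seed, bases 2 to 8.
mmu-miR-146a-5p: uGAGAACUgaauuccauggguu
A match to this seed was searched for in annotated 3 prime untranslated regions as AGTTCTC, or as GTTCTCA, which are motifs that overlap each other and were read on the message strand only. Of the 10 genes, 1 held a match, Brd8 with a single site. Among 11247 tested genes with an annotated 3 prime untranslated region, 20.9% held at least 1 match, and Traf6 and Irak1 held 4 and 3. The match is a description of letters, and Rps14, the gene with the largest difference here, has an annotated 3 prime region of 48 bases with none.

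In the mouse these genes are scattered (coordinates are those of mm10). On chromosome 18, which holds neither deleted gene, lie Apc (chr18:34220924-34322552), Brd8 (chr18:34598615-34624601), Hspa9 (chr18:34937414-34954357), Ctnna1 (chr18:35118859-35254779), Diaph1 (chr18:37843601-37935476), Rps14 (chr18:60747098-60778546) and Csnk1a1 (chr18:61555274-61590061). Ddx41 (chr13:55530410-55536658) lies 637 kb from Tifab. Npm1 (chr11:33152287-33163206) and Sparc (chr11:55394500-55423183) share the chromosome of miR-146a at distances of 10.2 and 12.0 Mb. All 10 are protein-coding genes.

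Libraries held 7826843 to 12787982 reads assigned to genes, between 3.85 and 10.7% of them on the 45S pre-rRNA row. TIFAB_KO replicate 3 and dKO replicate 3 stood apart, with median correlations with the other libraries of 0.947 and 0.951 against 0.974 for the closest libraries. Progenitor markers were present in every library: Kit had 270.0 to 459.0 CPM (reads scaled to a common library total), Myb 934.0 to 1540.0 CPM and the stem cell marker Ly6a (Sca-1) 0.597 to 5.3 CPM. Tifab fitted its label, at 2.64, 2.10, 1.72 and 3.46 log2 CPM in dKO and 3.17, 3.56 and 3.69 log2 CPM in TIFAB_KO, against 6.11, 6.15 and 6.01 log2 CPM in miR-146a_KO and 5.34, 5.63 and 5.31 log2 CPM in WT. Reads remained on its row, 75 to 164 in TIFAB_KO libraries and 28 to 129 in dKO libraries, with the most of dKO in replicate 4. The row of the miR-146a hairpin had 0 reads in all 13 libraries, WT included, so this assay gives no check of that label.

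Of the 10 genes 9 were well measured in LK cells and Sparc was barely detected. Per length of the longest annotated transcript (RPKM, CPM divided by length in kilobases), the median level over 13 libraries was 3060.0 for Npm1, 221.0 for Rps14, 120.0 for Hspa9 and 62.0 for Csnk1a1. Next came Diaph1 at 31.4, Brd8 at 30.4, Ctnna1 at 28.1, Ddx41 at 22.3 and Apc at 16.3 RPKM, with Sparc last at 0.183 RPKM. The steps from Npm1 to Rps14, Hspa9 to Csnk1a1, Csnk1a1 to Diaph1 and Apc to Sparc held in all 13 libraries. The order of Diaph1, Brd8 and Ctnna1 was not settled, since Diaph1 exceeded Brd8 in 7 of 13 libraries and Brd8 exceeded Ctnna1 in 8 of 13.

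**Figure D1:**
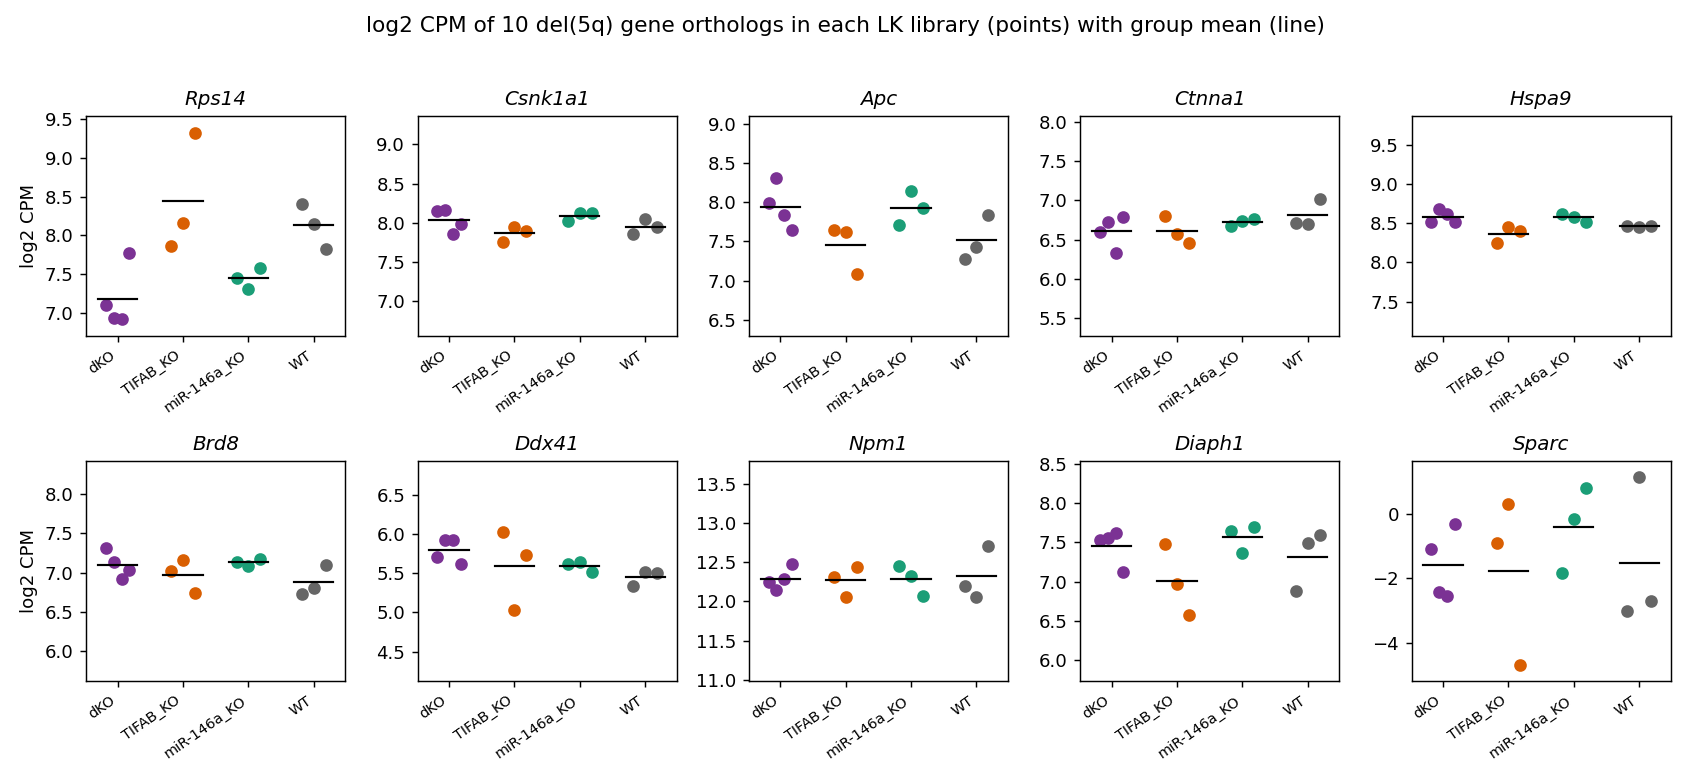
Expression of the 10 genes in log2 CPM (vertical axis) in each library of dKO, TIFAB_KO, miR-146a_KO and WT cells, with points for libraries and lines for group means (n = 4, 3, 3 and 3). Rps14 sits lower in the 7 libraries that lack miR-146a than in the 6 that have it, at 6.92 to 7.77 against 7.82 to 9.32 log2 CPM, and the vertical span is wider for Sparc, which has few reads.

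Rps14, which encodes a protein of the small ribosomal subunit and is the gene most closely tied to the anaemia of the human deletion, was the only one of the 10 genes to pass the test in any comparison. It had 137.0, 121.7, 120.9 and 217.8 CPM in dKO libraries, 231.5, 286.9 and 637.5 CPM in TIFAB_KO libraries, 175.0, 158.1 and 191.4 CPM in miR-146a_KO libraries, and 339.4, 284.2 and 225.9 CPM in WT. All 7 libraries without miR-146a lay below all 6 with it, and TIFAB_KO replicate 3 was far above all others. On the log2 scale the groups averaged 7.18 ± 0.40 in dKO (SD, n = 4), 8.45 ± 0.77 in TIFAB_KO, 7.45 ± 0.14 in miR-146a_KO and 8.13 ± 0.29 in WT (n = 3 each).

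With both Tifab states pooled, loss of miR-146a was accompanied by a fall of Rps14 with a log2 fold change of -0.97 ± 0.20 (SE, 95% interval -1.38 to -0.56, limma adjusted p = 0.0403), or 50.9% of the level with miR-146a present. This was the only call among the members, 1 of 9 tested, where 0.733% of all 11867 tested genes passed (55 higher and 32 lower). The ranges of libraries with and without the microRNA did not overlap for Rps14 and for Hspa9, which holds for 1.57% of all tested genes. In a bulk fraction such as this, less RNA per cell and fewer cells that carry it cannot be told apart.

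Single comparisons of groups had the same sign for Rps14 but did not pass. The log2 fold change was -0.95 ± 0.27 in dKO against WT (limma adjusted p = 0.211), -0.68 ± 0.29 in miR-146a_KO against WT (0.501) and -1.27 ± 0.27 in dKO against TIFAB_KO (0.13, unadjusted p = 1.49e-04). The groups did not overlap in any of these 3 pairs. Leaving out a single library brought 2 of them past the threshold: dKO against WT without TIFAB_KO replicate 3 (-0.95, limma adjusted p = 0.0494) or dKO replicate 4 (-1.14, 0.0256), and dKO against TIFAB_KO without TIFAB_KO replicate 1 (-1.56, 0.043), TIFAB_KO replicate 2 (-1.41, 0.0466) or dKO replicate 4 (-1.46, 0.0142). Without TIFAB_KO replicate 3 the difference between dKO and TIFAB_KO was smaller, at -0.83 ± 0.21 (limma adjusted p = 0.573). Loss of Tifab alone left Rps14 at 0.32 ± 0.29 (TIFAB_KO against WT, adjusted p = 0.999), a value that turned negative, to -0.12, without TIFAB_KO replicate 3. Whether the effect of miR-146a loss differed with the Tifab state was not resolved, since the interaction was -0.59 ± 0.39 (adjusted p = 1) with an interval of -1.41 to 0.23, and without TIFAB_KO replicate 3 it was -0.15 ± 0.29.

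The call on Rps14 stood close to the threshold, and 9 of the 13 libraries were each needed for it. Without WT replicate 1 or 2, TIFAB_KO replicate 3, any of the 3 miR-146a_KO libraries, or dKO replicate 1, 2 or 3, the log2 fold change was between -1.01 and -0.76 with limma adjusted p between 0.0561 and 0.141. Without both libraries that stood apart it was -0.71 ± 0.15 (adjusted p = 0.0934). At an unchanged -0.97 the call was also lost without the filter on low values (limma adjusted p = 0.13) and without a variance trend (0.15). The row also overlaps Ndst1 on the opposite strand, where reads cannot be assigned if strand was not used. Ndst1 itself was at 0.22 ± 0.12 under loss of miR-146a (limma adjusted p = 0.27). The part of the overlap in the Rps14 value was not tested.

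**Figure D2:**
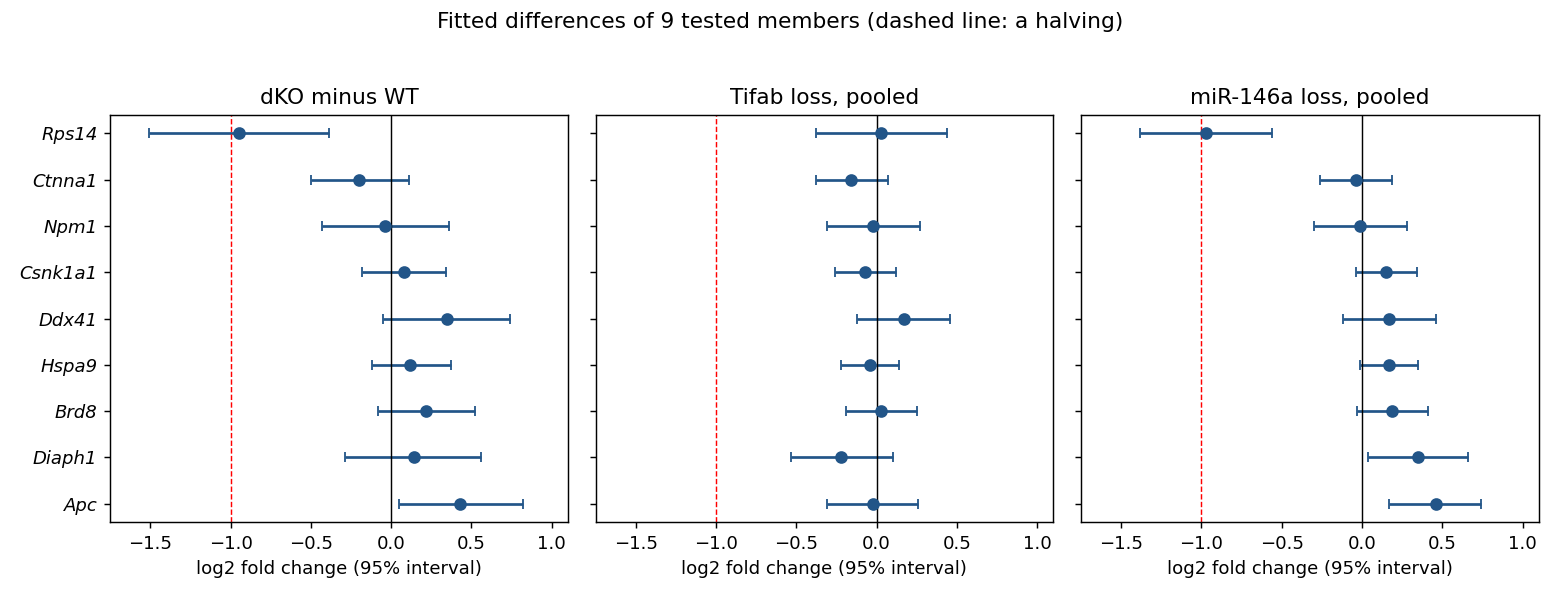
Fitted log2 fold changes (horizontal axis, points) with 95% intervals (bars) for the 9 tested genes in dKO minus WT, loss of Tifab pooled over miR-146a states, and loss of miR-146a pooled over Tifab states, from all 13 libraries. The interval of Rps14 under loss of miR-146a runs from -1.38 to -0.56 and reaches the dashed line at -1, a loss of the size that a deleted copy would give, which the intervals of the other 8 genes do not.

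Messages for other proteins of the small ribosomal subunit had negative values beside Rps14, and part of them passed the test. Of 32 other genes of the subunit, 32 were below 0 under pooled loss of miR-146a, with a median log2 fold change of -0.46 against 0.09 for all tested genes. By the test 7 of the 32 fell (all genes called in either direction 0.733%). Among them were Rps26 at -0.58 ± 0.12 (limma adjusted p = 0.0403), Rps20 at -0.54 ± 0.11 (0.0427), Rps15 at -0.59 ± 0.13 (0.0446) and Rps3a1 at -0.61 ± 0.13 (0.0481). Under the 25 other settings 30 to 32 of them stayed below 0, but in 12 of those settings 0 passed. Without TIFAB_KO replicate 3, 0 of 32 passed and the median was -0.36, and with the length trend removed 2 passed and the median was -0.35. In each comparison between single groups 0 passed. At an unadjusted limma p under 0.05, 15 of 32 were lower in miR-146a_KO against WT (all genes in either direction 9.53%). In dKO against WT 19 were lower (all genes 14.1%). Under pooled loss of Tifab the same 32 genes had a median of -0.03, with 0 called, against -0.01 for all genes.

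Rps14 stood at the low end of this family. It ranked second lowest of 33 genes, after Rps10 at -0.98 and before Rps4x at -0.81. Rps14 minus the mean of the other 32 genes was -1.44, -1.70, -1.66 and -1.04 log2 units in dKO, -1.16, -0.76 and -0.23 in TIFAB_KO libraries, -1.30, -1.52 and -1.04 in miR-146a_KO libraries, and -0.93, -0.83 and -1.17 in WT. The groups overlapped, with dKO replicate 4 and miR-146a_KO replicate 3 inside the WT range. The pooled difference was -0.53 (exact two-sided permutation test over 700 regroupings of libraries within Tifab states, p = 0.00857, smallest possible 0.00143), and it was -0.41 without TIFAB_KO replicate 3 (exact permutation p = 0.03). This comparison was chosen after the values had been seen, for a gene called in these same libraries. Its p-values therefore describe the libraries and are not separate support.

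**Figure D3:**
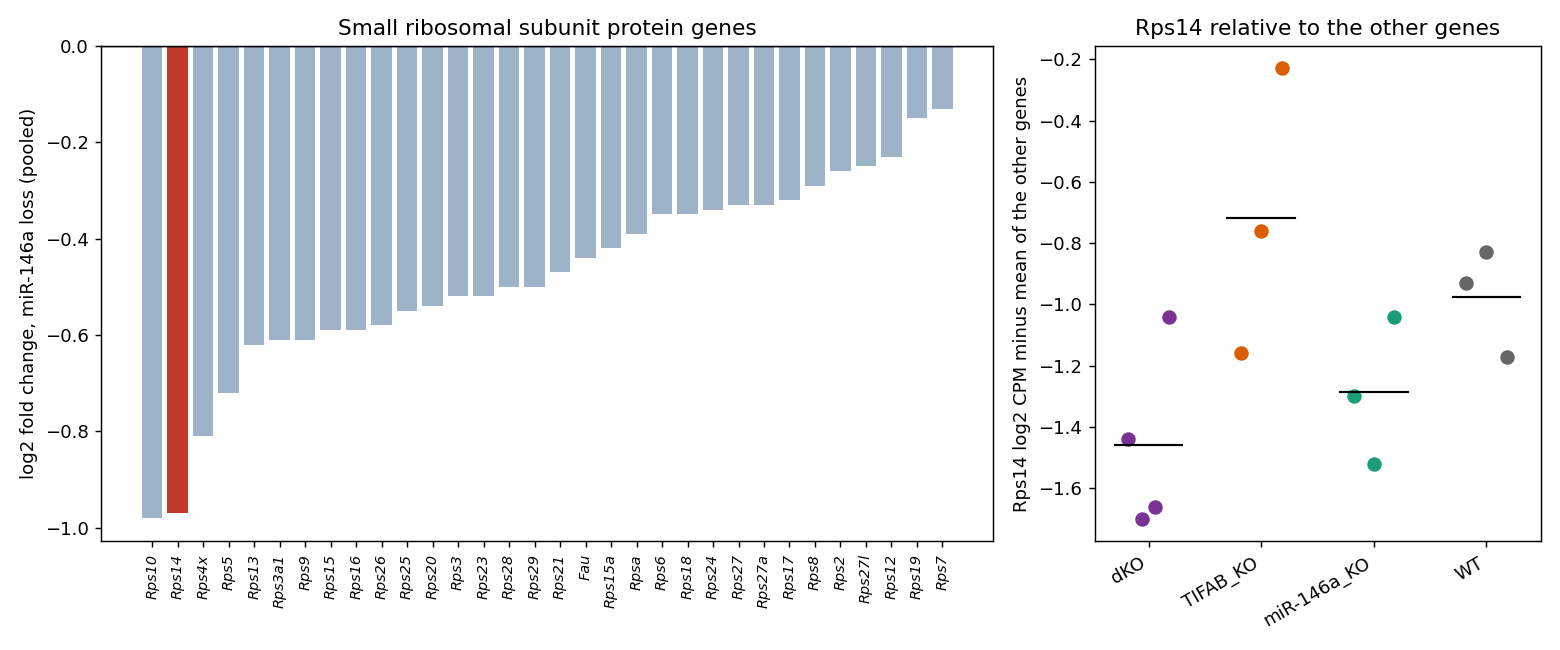
Left, log2 fold changes under pooled loss of miR-146a for 32 of the 33 genes of the small ribosomal subunit, with Rps14 in red; right, Rps14 log2 CPM minus the mean of the other 32 genes in each library of dKO, TIFAB_KO, miR-146a_KO and WT, with lines for group means. All 32 bars lie below 0, from -0.98 for Rps10 to -0.13 for Rps7, and the library values run from -1.70 to -0.23.

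Several properties of the libraries were set beside the miR-146a state, and their ranges were not tested. With and without miR-146a the ranges were separate for the balance of long and short genes. They overlapped for the 45S share and for the summed markers. The median deviation of long genes (transcripts of at least 4811 bases) minus that of short genes (up to 2223 bases) was 0.03 to 0.24 log2 units in the 7 libraries without miR-146a and -0.63 to 0.01 in the 6 with it, and with each library's length trend removed Rps14 was at -0.81 (limma adjusted p = 0.0593). The 45S pre-rRNA share was 3.85 to 6.99% in libraries without miR-146a and 4.2 to 10.7% in those with it. The summed level of 8 megakaryocyte and platelet markers was 400.0 to 707.0 CPM without miR-146a and 635.0 to 889.0 CPM with it, all 8 being detected in every library. Of these markers Pf4, a platelet chemokine, fell by the test (-0.68 ± 0.16, limma adjusted p = 0.0499, all genes called 0.733%), and 7 of 8 were below 0. In 14 of 25 other settings 0 of the 8 markers passed, among them the fit without TIFAB_KO replicate 3 and that with the length trend removed, where Pf4 was at -0.45. The part of the 45S share and of these markers in the Rps14 result was not tested. Markers of other lineages had 0 called under pooled loss of miR-146a. Medians were 0.12 for erythroid markers (4 of 5 above 0), 0.35 for late granulocyte markers (4 of 4) and 0.09 for macrophage markers (3 of 6). The median of all genes was 0.09, and the 1 tested B lineage marker was at 1.76. The 5 progenitor markers did not follow the miR-146a state and summed to 9740.0 to 13200.0 CPM in dKO, 14100.0 to 16500.0 in TIFAB_KO, 11200.0 to 13300.0 in miR-146a_KO and 8670.0 to 13200.0 in WT.

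Loss of ribosomal protein genes is known to stabilise p53, so p53 and its targets were read beside Rps14. Of 22 tested genes on that list, 13 were above 0 and 9 below under pooled loss of miR-146a, with a median of 0.14 against 0.09 for all genes and 0 called (5 higher and 2 lower at an unadjusted limma p under 0.05). Over all tested genes 23.2% had such a p-value in this comparison, which is also the share for the lists below. The 2 pairs behind the median of 0.14 had a median of 0.27 in dKO against TIFAB_KO (16 above 0, 6 below) and of -0.03 in miR-146a_KO against WT (10 above, 12 below). In TIFAB_KO against WT 20 of the 22 were below 0 with a median of -0.30 and 0 called. At an unadjusted limma p under 0.05, 5 were lower (all genes in either direction 5.11%). For pooled loss of miR-146a the smallest p-values belonged to Zmat3 (0.61 ± 0.18, limma adjusted p = 0.0792), Ccng1 (0.32 ± 0.10, 0.0818), Btg2 (0.49 ± 0.15, 0.0822) and Trp53inp1 (0.57 ± 0.17, 0.0826). In dKO against WT the leading values were negative, with Perp at -1.71 ± 0.39 (limma adjusted p = 0.119) and the cell cycle inhibitor Cdkn1a at -1.26 ± 0.35 (0.211), neither past the threshold.

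Apc, the scaffold of the complex that marks beta-catenin for breakdown, had the highest log2 fold change of the 9 genes under pooled loss of miR-146a and did not pass. It had 254.6, 316.3, 227.2 and 199.9 CPM in dKO, 199.0, 196.3 and 135.2 CPM in TIFAB_KO libraries, 209.0, 281.1 and 244.3 CPM in miR-146a_KO libraries, and 154.4, 172.2 and 227.4 CPM in WT. TIFAB_KO replicate 3 was lowest, and dKO lay just above all TIFAB_KO libraries. The pooled log2 fold change was 0.46 ± 0.13 (95% interval 0.17 to 0.74, limma adjusted p = 0.0792). It passed without TIFAB_KO replicate 2 (0.50 ± 0.14, adjusted p = 0.0469), without dKO replicate 4 (0.51 ± 0.13, 0.0277) and with library quality weights (0.44 ± 0.11, 0.0326). Without TIFAB_KO replicate 3 it was 0.37 ± 0.13 (adjusted p = 0.179). In dKO against WT it was 0.43 ± 0.18 (adjusted p = 0.316).

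Csnk1a1, the casein kinase that primes beta-catenin for breakdown and the target of lenalidomide action in human del(5q) cells, was among the steadiest of the genes. Its 13 libraries ran from 216.7 to 285.9 CPM, and group means were 263.7 ± 26.2 CPM in dKO (SD, n = 4), 234.3 ± 15.7 in TIFAB_KO, 272.7 ± 11.2 in miR-146a_KO and 248.7 ± 16.5 in WT (n = 3 each). Log2 fold changes were 0.15 ± 0.09 under pooled loss of miR-146a (limma adjusted p = 0.323) and -0.07 ± 0.09 under pooled loss of Tifab (adjusted p = 1). Of 16 tested genes of the casein kinase family and the beta-catenin destruction complex, 11 were above 0 under loss of miR-146a and 0 passed, with a median of 0.05 (2 higher and 2 lower at an unadjusted limma p under 0.05). Of 11 tested genes of the Wnt response, 10 were above 0 with a median of 0.21, again with 0 called (1 at an unadjusted p under 0.05), and that median was 0.03 once the trend with transcript length was removed.

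Ctnna1, which encodes the alpha-catenin that ties cadherins to actin and is known as a silenced tumour suppressor gene in del(5q) leukaemia, showed no difference past the threshold in any comparison. Levels were 97.0, 106.1, 80.43 and 110.7 CPM in dKO, 111.1, 94.8 and 87.82 CPM in TIFAB_KO libraries, 101.5, 107.2 and 109.2 CPM in miR-146a_KO libraries, and 104.9, 103.6 and 130.1 CPM in WT. All groups overlapped. Its log2 fold change was -0.20 ± 0.15 in dKO against WT (95% interval -0.50 to 0.11, limma adjusted p = 0.536), -0.16 ± 0.11 under pooled loss of Tifab and -0.04 ± 0.11 under pooled loss of miR-146a. Among 9 tested genes of catenins and adherens junctions 0 passed (1 at an unadjusted p under 0.05) under loss of miR-146a. The leading value there was Ctnnd1 at 0.28 ± 0.11 (limma adjusted p = 0.143), or 0.07 with the length trend removed.

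Diaph1, a formin that nucleates actin filaments, varied widely within TIFAB_KO and within WT. TIFAB_KO libraries spanned 95.25 to 178.8 CPM and WT libraries 118.1 to 192.5 CPM, while group means were 177.4 ± 26.2 CPM in dKO (SD, n = 4), 133.2 ± 42.3 in TIFAB_KO, 191.6 ± 22.8 in miR-146a_KO and 163.7 ± 39.9 in WT (n = 3 each). The pooled log2 fold change was 0.35 ± 0.15 for loss of miR-146a (95% interval 0.04 to 0.66, limma adjusted p = 0.17) and -0.22 ± 0.15 for loss of Tifab (-0.53 to 0.10, adjusted p = 1). Without TIFAB_KO replicate 3 these were 0.24 ± 0.14 and -0.11 ± 0.14. Of 23 tested genes for formins and for actin regulation, 12 were above 0 under loss of miR-146a and 0 passed (4, all higher, at an unadjusted limma p under 0.05). Fmnl2, another formin, had the smallest p-value of them at 0.37 ± 0.14 (adjusted p = 0.139).

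Hspa9, the mitochondrial chaperone mortalin, had closely grouped libraries. It had 365.5, 410.0, 394.0 and 365.8 CPM in dKO, 304.8, 348.8 and 336.7 CPM in TIFAB_KO libraries, 393.3, 382.8 and 367.3 CPM in miR-146a_KO libraries, and 351.8, 349.5 and 353.8 CPM in WT. Every library without miR-146a was above every library with it, at 8.51 to 8.68 against 8.25 to 8.47 log2 CPM. The difference was small, with a pooled log2 fold change of 0.17 ± 0.09 (95% interval -0.01 to 0.35, limma adjusted p = 0.245), and did not pass. Of 22 tested genes for mitochondrial chaperones and import, 10 were above 0 and 12 below, 1 higher and 4 lower at an unadjusted limma p under 0.05. Grpel2, a co-chaperone of mortalin, was the one that rose by the test (1 of 22, all genes called 0.733%). It was at 0.54 ± 0.12, just under the threshold (limma adjusted p = 0.0499), and at 0.43 with the length trend removed. Whether its call holds under the other settings was not tested. Timm17b, of the import channel, was at -0.57 ± 0.16 (limma adjusted p = 0.0765).

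Brd8, a bromodomain subunit of the TIP60 histone acetyltransferase complex, and Ddx41, a DEAD-box helicase of the spliceosome, were above 0 under pooled miR-146a loss. Neither passed, and the median of all tested genes was 0.09. Brd8 averaged 137.8 ± 16.3 CPM in dKO (SD, n = 4), 126.6 ± 18.1 in TIFAB_KO, 140.4 ± 4.19 in miR-146a_KO and 118.3 ± 16.5 in WT (n = 3 each), with a pooled log2 fold change of 0.19 ± 0.11 for loss of miR-146a (limma adjusted p = 0.283). With the length trend removed Brd8 was at 0.06 ± 0.08 (limma adjusted p = 0.729). Of 18 tested genes of its complex, 9 were above 0 and 0 passed under loss of miR-146a (2 higher and 1 lower at an unadjusted limma p under 0.05), and the scaffold Trrap was at 0.31 ± 0.11 (adjusted p = 0.105). In miR-146a_KO against WT Trrap moved from 0.30 to 0.08 with the length trend removed.

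Ddx41 was at 52.23, 60.31, 60.61 and 49.25 CPM in dKO, 64.93, 32.62 and 53.17 CPM in TIFAB_KO libraries, 49.21, 49.99 and 45.74 CPM in miR-146a_KO libraries, and 40.27, 45.44 and 45.14 CPM in WT. Both dKO and miR-146a_KO libraries lay above all WT libraries, and TIFAB_KO libraries spanned the whole range. The log2 fold change was 0.35 ± 0.19 in dKO against WT (95% interval -0.05 to 0.74, limma adjusted p = 0.406), and 0.17 ± 0.14 for pooled loss of either gene. Its distance of 637 kb from Tifab was therefore not accompanied by a difference that passed. Of 21 tested genes for DEAD-box helicases and the spliceosome, 11 were above 0 under loss of miR-146a with 0 called (2 higher and 1 lower at an unadjusted limma p under 0.05), and Aqr, an RNA helicase of the spliceosome, came nearest at 0.43 ± 0.10 (adjusted p = 0.0503).

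Npm1, the nucleolar chaperone nucleophosmin and the most abundant of the 10 messages, showed differences near 0. It had 4883.0, 4502.0, 5002.0 and 5677.0 CPM in dKO, 5081.0, 4257.0 and 5538.0 CPM in TIFAB_KO libraries, 5576.0, 5096.0 and 4297.0 CPM in miR-146a_KO libraries, and 4699.0, 4283.0 and 6689.0 CPM in WT. The groups overlapped throughout, and WT replicate 3 was the highest library. Pooled log2 fold changes were -0.02 ± 0.14 for loss of Tifab (95% interval -0.31 to 0.27) and -0.01 ± 0.14 for loss of miR-146a (-0.30 to 0.28), and dKO against WT gave -0.04 ± 0.19. Of 20 tested nucleolar genes 10 were above 0 and 10 below under loss of miR-146a with 0 called (3 higher and 5 lower at an unadjusted limma p under 0.05), and Gltscr2, a nucleolar partner of ribosomal proteins, was at -0.60 ± 0.15 (limma adjusted p = 0.0596).

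Sparc, a secreted matrix-binding protein, was too low to test. It had 4, 1, 1 and 9 reads in dKO, 4, 13 and 0 in TIFAB_KO libraries, 2, 9 and 13 in miR-146a_KO libraries, and 1, 21 and 1 in WT, 79 reads in all. Libraries of every group held both a few reads and nearly none, and its mean of -1.34 log2 CPM was under the minimum of 0 set for testing. A count of 0 allows up to 3 reads, which corresponds to 0.235 to 0.383 CPM at these depths, counting error only. Of 12 stromal and endothelial markers 5 were detected in every library. Col3a1 had at most 0.128 CPM, Cdh5 at most 0.674 CPM, Cxcl12 at most 2.94 CPM and Col1a1 at most 4.07 CPM. Col1a2 had 0.718 to 6.17 CPM, Lepr 5.32 to 10.1 CPM and Pecam1, also found on blood progenitors, 69.1 to 117.0 CPM. The 12 markers summed to 108.0 to 144.0 CPM in dKO, 119.0 to 165.0 in TIFAB_KO, 131.0 to 140.0 in miR-146a_KO and 117.0 to 136.0 in WT. Of 26 listed matrix genes 10 were high enough to test, and 0 passed under loss of miR-146a (1 higher and 1 lower at an unadjusted limma p under 0.05).

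None of the 11 pathway lists above had a call under pooled loss of Tifab with limma, and at an unadjusted p under 0.05 there were 3 lower genes among p53 targets, 2 higher and 1 lower among matrix genes, 1 lower among mitochondrial chaperones and 0 in the others (all genes 2.46%). Read across pairs of groups, 0 of the 9 tested members were called. Counts by looser rules are given beside the share of all genes, and with 9 genes they are coarse. In TIFAB_KO against WT 0 of 9 were called (all genes 0.0169%), 0 had an unadjusted limma p under 0.05 (all genes 5.11%) and the ranges of groups did not overlap for 1 gene, Hspa9, lower in TIFAB_KO (all genes 8.52%). In miR-146a_KO against WT 0 were called (all genes 0.0843%), 2 had an unadjusted limma p under 0.05 (all genes 9.53%), and Rps14, lower, with Hspa9 and Ddx41, higher, did not overlap (3 of 9, all genes 21.9%). In dKO against WT 0 were called (all genes 0.0674%), 2 had an unadjusted limma p under 0.05 (all genes 14.1%) and the same 3 genes did not overlap in the same directions (all genes 12.5%). In dKO against TIFAB_KO 0 were called (all genes 0.0337%), 3 had an unadjusted limma p under 0.05 (all genes 18.5%), and Rps14, lower, with Apc and Hspa9, higher, did not overlap (all genes 10.7%). In dKO against miR-146a_KO 0 were called (all genes 0.0506%), 0 had an unadjusted limma p under 0.05 (all genes 1.93%) and 0 did not overlap (all genes 3.72%). The comparisons against WT share the WT libraries, so they are not separate evidence.

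The 95% intervals were set against a loss of the size a missing copy gives, a log2 fold change of -1, and the shares of members above it were near those of all genes. Under pooled loss of Tifab the 9 values ran from -0.22 for Diaph1 to 0.17 for Ddx41, 0 of 9 passed (all genes 0.0169%), libraries without and with Tifab overlapped for all 9 (all genes not overlapping 0.0927%), and the 95% intervals of 9 of 9 lay above -1 (all genes 94.3%). At an unadjusted limma p under 0.05, 0 of 9 did so for Tifab loss (all genes 2.46%) and 3 of 9, Rps14, Apc and Diaph1, for miR-146a loss (all genes 23.2%). Under pooled loss of miR-146a the interval lay above -1 for 8 of 9 genes, with Rps14 the exception (all genes 94.6%). In dKO against WT it did so for 8 of 9, Rps14 again the exception (all genes 87.4%). The interaction passed for 0 of 9 genes (all genes 0%), 0 of 9 had an unadjusted limma p under 0.05 (all genes 4.23%), and the values lay between -0.59 for Rps14 (-0.15 without TIFAB_KO replicate 3) and 0.20 for Diaph1.

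**Figure D4:**
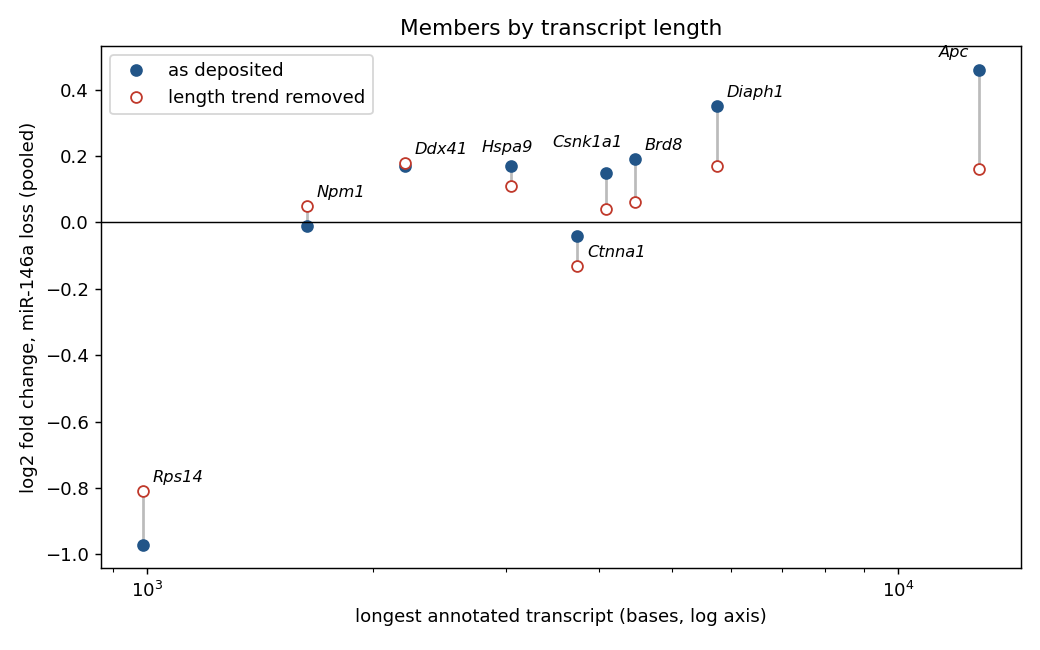
Log2 fold change under pooled loss of miR-146a (vertical axis) for the 9 tested genes by the length of their longest annotated transcript (bases, log axis), as deposited (filled) and after removal of each library's trend with length (open). Removing the trend moves Apc to 0.16, Diaph1 to 0.17 and Rps14 to -0.81.

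Fold changes under loss of miR-146a moved with transcript length. Over all genes with a known length, the median pooled log2 fold change was -0.06 for genes of up to 2223 bases and 0.22 for genes of at least 4811 bases, whereas for loss of Tifab it was 0 and -0.02. Rps14 is the shortest of the 10 genes at 987 bases, and Apc, at 12811 bases, and Diaph1, at 5741 bases, are the longest. With each library's length trend removed, a step chosen after the data were seen, Apc was at 0.16 ± 0.09 (limma adjusted p = 0.371) and Diaph1 at 0.17 ± 0.13 (0.51). Rps14 was at -0.81 ± 0.17 and did not pass (adjusted p = 0.0593). The remaining tested members were then at 0.18 for Ddx41, 0.11 for Hspa9, 0.06 for Brd8, 0.05 for Npm1, 0.04 for Csnk1a1 and -0.13 for Ctnna1.

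Apart from Tifab itself, the other listed 5q genes that were called lie on the chromosomes of the deleted loci in the mouse. Of these, 1 lies close by and 2 at 11.5 and 11.7 Mb. How many of the 50 listed genes lie on those chromosomes was not counted, so a shared chromosome is a description only. Of 50 other tested orthologs of human 5q genes, Tifab included, 2 were called under pooled loss of Tifab (all genes 0.0169%), the deleted gene being 1 of them, and 2 under pooled loss of miR-146a (all genes 0.733%), and the medians were -0.02 and 0.01 against -0.01 and 0.09 for all genes. With Tifab lost, H2afy, which encodes the histone variant macroH2A1 and lies 37.3 kb from Tifab, fell by 1.08 on the log2 scale (SE 0.11, limma adjusted p = 7.47e-05), beside Tifab itself at -2.78 ± 0.22. With miR-146a lost, Gm2a, a lysosomal activator of ganglioside breakdown, was at -1.43 ± 0.10 and Lyrm7, an assembly factor of respiratory complex III, at 2.91 ± 0.22 (both adjusted p = 3.37e-07). Gm2a and Lyrm7 lie 281.5 and 533.6 kb from Sparc and 11.7 and 11.5 Mb from miR-146a, on the same chromosome. H2afy, Gm2a and Lyrm7 were each called in each of 25 other settings. Gm2a and Lyrm7 were known to differ when this list was written. The count of 2 under loss of miR-146a therefore cannot be read against the share of all genes. Nor can the count of 2 under loss of Tifab. It holds the deleted gene and its neighbour at 37.3 kb, on a list written with earlier results known. The other 5q genes nearest the threshold under loss of miR-146a were Nsd1 at 0.46 ± 0.13 (adjusted p = 0.07) and Nr3c1 at 0.34 ± 0.10 (0.0832). With the length trend removed Nsd1 was at 0.17 and Nr3c1 at 0.14.

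**Figure D5:**
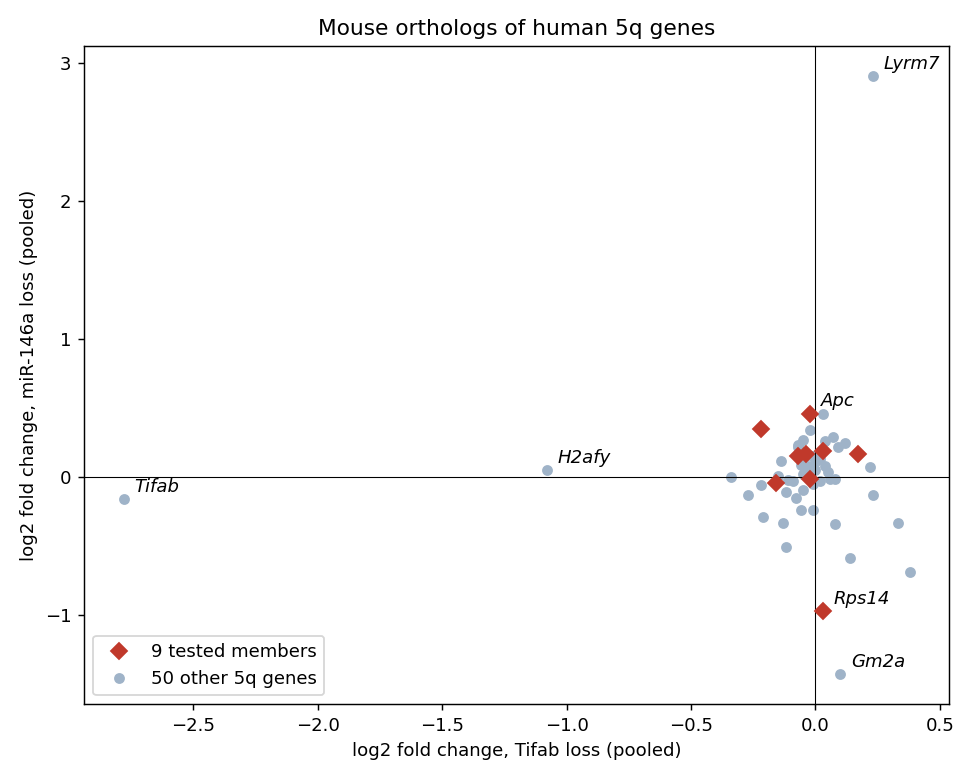
Pooled log2 fold changes for loss of Tifab (horizontal axis) and loss of miR-146a (vertical axis) for the 9 tested members (red diamonds) and 50 other orthologs of human 5q genes (blue points). Tifab and H2afy stand apart to the left at -2.78 and -1.08, Lyrm7 at the top at 2.91 and Gm2a at the bottom at -1.43, with Rps14 at -0.97 below the remaining members.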

How the data were processed

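The deposited table holds log2 CPM per gene and library. Its values follow limma's voom formula, in which 0.5 read is put on every gene and 1 read on the library sum. Solving it for reads gave whole numbers for 100% of values within 0.01 read. TopHat, featureCounts, limma and mm10 are named per the submitters' processing notes. Their versions, the annotation and whether counting used strand were not given in the sources used here.

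Positions and transcript lengths came from GENCODE M21 on GRCm38, the mm10 build, with 98.3% of rows matched by symbol or older symbol. The test was limma 3.58.1 in R 4.3.3 on the deposited log2 CPM of the 11867 genes with a mean of at least 0, with a mean for each group over all 13 libraries, a variance trend and Benjamini-Hochberg adjustment within a comparison. An adjusted p under 0.05 was called. Residual and prior degrees of freedom were 9 and 9.53. Pooled loss of miR-146a averages dKO minus TIFAB_KO with miR-146a_KO minus WT, and pooled loss of Tifab averages dKO minus miR-146a_KO with TIFAB_KO minus WT. The interaction is the first of those differences minus the other. Errors are SD for group levels and SE for fold changes. The fitting step was tested on simulated data.

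The 10 members, the gene lists and the tests were chosen with earlier results of these data known. All members are named in every comparison, and of each list up to 4 genes with the smallest p-values. Alternatives were the filter, normalization, variance model, weights, the groups in the fit, a block on replicate number, each library left out, and, added after the data were seen, removal of a length trend and totals without the 10 largest rows. The value of 1 gene of the small ribosomal subunit is not reported here.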

Additional observations from a re-analysis of the deposited data

How the results depend on the processing

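Over 26 alternatives and the 9 tested members, 1845 values were compared with those reported. Of these 13 lost a call, all of them Rps14 under pooled loss of miR-146a, 15 gained one (Rps14 or Apc), and 0 changed sign with a call. A sign changed without a call in 131, where the reported value was at most 0.32 in size. The causes were not tested.

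Counts of genes called moved more. In pooled loss of miR-146a the reported 87 (55 higher, 32 lower) became 16 without a filter (median of all genes 0.19 against 0.09), 8 without a variance trend, 27 with quantile normalization (8 higher, 19 lower), 30 with voom weights (5 higher, 25 lower), 693 with library quality weights, 8 without TIFAB_KO replicate 3 and dKO replicate 3, 26 with the length trend removed (10 higher, 16 lower) and 44 with totals without the 10 largest rows (18 higher, 26 lower). Members called there were 0 without a filter, without a variance trend, without those 2 libraries and with the length trend removed, and 2 with quality weights. In pooled loss of Tifab the reported 2 became 4 without a filter and 5 with quality weights.

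In TIFAB_KO against WT the reported 2 became 0 without a filter, with quantile normalization or without a variance trend, 5 with quality weights, and 1 with the groups compared alone, the length trend removed or totals without the 10 largest rows. In miR-146a_KO against WT the reported 10 became 5 without a variance trend, 213 with quality weights (1 member) and 89 with the groups compared alone (1 member). In dKO against WT the reported 8 became 4 without a variance trend, 792 with quality weights (2 members) and 13 with the groups compared alone. In dKO against TIFAB_KO the reported 4 became 7 without a filter, and in dKO against miR-146a_KO the reported 6 became 3 without a variance trend.

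With 1 library left out at a time, genes called ranged from 0 to 44 in TIFAB_KO against WT, 4 to 12 in miR-146a_KO against WT, 4 to 336 in dKO against WT (members 0 to 1), 3 to 278 in dKO against TIFAB_KO (members 0 to 1), 2 to 5 in dKO against miR-146a_KO, 2 to 5 in pooled loss of Tifab, 7 to 1040 in pooled loss of miR-146a (members 0 to 2) and 0 to 1 in the interaction.

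Replicate numbers did not pair the libraries: of 18 same-numbered pairs the correlations of deviations ran from -0.2 to 0.23, with 2 over 0.1, and 4 of 12 libraries correlated best with their own number. The library labels also carry S codes, some shared between groups and not matching the replicate numbers. Their meaning is not stated, and pairing by them was not tested. A replicate block gave 281 genes in dKO against WT (1 member), 146 in dKO against TIFAB_KO (1 member), 3 in dKO against miR-146a_KO and 869 in pooled loss of miR-146a (2 members), where Rps14 was at -1.07 (limma adjusted p = 0.00959). Only dKO has a replicate 4, so that library formed a block of its own and did not bear on the fold changes. With dKO replicate 4 left out and no block, Rps14 was likewise at -1.07 (limma adjusted p = 0.00537). In that fit 1040 genes were called in pooled loss of miR-146a.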

Other observations

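Across the 13 libraries the log2 CPM of Rps14 was most like that of Rpl9 and Rps16, with Pearson correlations of 0.97 and 0.96, both genes of the ribosome. Apc was most like Ankhd1 and Man1a2 (0.98 each), Brd8 like Dnajc1 (0.95), Diaph1 like Rpf1 (0.95), Csnk1a1 like Fignl1 and Phf6 (0.92 each), Hspa9 like Ubxn2b (0.92), Ctnna1 like Lrrfip2 (0.90), Ddx41 like Vegfb (0.90) and Npm1 like Ppig and Prpf38b (0.88 each). Among the 9 tested members Rps14 and Apc lay farthest apart (-0.89) and Apc and Brd8 closest (0.77). The libraries share depth, length balance and genotype, so these values only describe the table.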
